A study of Mus musculus with 20 samples.

Results

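Chromatin accessibility was examined at 38 mouse genes of nucleotide excision repair in epidermal cells that had been left untreated, wounded, irradiated with UVB, treated with a small molecule, or grown in culture. The data were ATAC-seq, in which Tn5 transposase cuts open chromatin, from mice that all carried the Lrig1CreER/Rosa-TdTomato genotype, an inducible Cre driven by Lrig1 together with a red fluorescent reporter. All libraries came from sorted cells labelled Lrig1 GL, Sca1-positive, and the authors deposited 1 list of open regions for each of 10 groups, made from both libraries of that group. The groups were homeostasis, 1 week and 8 weeks after a first wound, 1 week after a second wound, vehicle, PRT4165 (a compound that blocks ubiquitination of H2A by Polycomb repressive complex 1), UVB, wounding together with UVB, and 2 cultures, started from a control region or from a region distal to the wound. The titles of the cultures place them 8 weeks after a first wound. The labels give no UVB dose, no time after irradiation and no age.

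A region was assigned to a gene when the summit of its peak lay in the mm10 span of the gene or within 10 kb of either end. Overlapping peaks were merged, first within a list and then across the 10 lists, and 150 of the 101406 merged regions fell at the 38 genes, with none in the windows of 2 members. The separate lists held 79 to 113 regions at these genes. Assignment is by position, and a region near a gene is no evidence that it controls that gene.

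Nucleotide excision repair removes bulky lesions that distort the DNA helix, among them the pyrimidine dimers and 6-4 photoproducts that UVB leaves in skin. Damage is recognised either across the genome, by Xpc and the Ddb1-Ddb2 complex, or on transcribed strands, where a stalled RNA polymerase II recruits Ercc6 and Ercc8. Both routes meet at the helicase complex TFIIH, after which nucleases cut on both sides of the lesion and replication proteins refill the gap. Inherited loss of several of these genes causes xeroderma pigmentosum or Cockayne syndrome in humans.

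Promoter sequence is shown for 6 example members, covering damage recognition, transcription-coupled recognition, TFIIH, single-strand binding and gap synthesis. No nuclease or ligation member is shown. Each is the stretch just upstream of the start, written 5′ to 3′ on the gene's strand, taken from RefSeq promoters of GRCm38.p6, which is mm10. Only bases outside every annotated gene span were kept. Capitals mark matches, on either strand, to 8 short motifs. A p53 half-site was also searched for, but its matches are not marked and stay in lower case.
Cetn2 (chrX:72918345-72918520, minus strand): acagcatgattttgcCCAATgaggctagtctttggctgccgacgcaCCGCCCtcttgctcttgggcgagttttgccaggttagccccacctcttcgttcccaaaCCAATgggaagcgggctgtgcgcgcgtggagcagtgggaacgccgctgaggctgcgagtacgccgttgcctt
Ercc8 (chr13:108158653-108158710, plus strand): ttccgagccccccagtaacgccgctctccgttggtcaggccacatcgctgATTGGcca
Gtf2h4 (chr17:35673751-35673993, minus strand): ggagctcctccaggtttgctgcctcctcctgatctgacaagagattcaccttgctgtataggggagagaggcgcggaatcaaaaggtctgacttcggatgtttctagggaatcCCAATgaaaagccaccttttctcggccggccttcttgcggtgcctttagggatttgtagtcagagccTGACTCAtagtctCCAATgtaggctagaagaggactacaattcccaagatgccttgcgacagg
Rpa3 (chr6:8259142-8259287, minus strand): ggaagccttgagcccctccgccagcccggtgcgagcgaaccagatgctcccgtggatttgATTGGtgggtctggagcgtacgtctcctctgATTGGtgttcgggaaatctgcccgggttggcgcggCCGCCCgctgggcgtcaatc
Rfc3 (chr5:151651209-151651458, minus strand): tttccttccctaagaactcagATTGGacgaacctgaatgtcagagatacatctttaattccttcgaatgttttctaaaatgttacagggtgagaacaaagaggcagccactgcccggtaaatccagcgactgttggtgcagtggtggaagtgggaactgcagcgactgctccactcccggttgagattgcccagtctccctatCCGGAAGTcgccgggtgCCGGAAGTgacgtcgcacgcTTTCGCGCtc
Pold3 (chr7:100121503-100121752, minus strand): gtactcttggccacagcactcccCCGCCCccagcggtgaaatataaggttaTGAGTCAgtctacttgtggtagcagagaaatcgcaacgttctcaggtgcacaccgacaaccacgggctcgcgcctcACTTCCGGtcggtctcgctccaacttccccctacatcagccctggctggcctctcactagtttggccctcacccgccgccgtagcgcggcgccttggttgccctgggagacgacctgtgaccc
In these stretches CCAAT or ATTGG is the NF-Y box, GGGCGG or CCGCCC the GC box of Sp1 and Klf factors, CCGGAAGT or ACTTCCGG an ETS site, TTTCGCGC an E2F site, and TGACTCA or TGAGTCA an AP-1 site. The last base shown lies 28 bases upstream of the start for Ercc8 and 8 bases upstream for Gtf2h4, and the other 4 end at the base before the start. Rfc3, a subunit of the clamp loader, held a pair of ETS sites and an E2F site close to its start.

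The table gave a start for 32 of the 38 members. Over windows from 250 bases before to 50 bases after the start, the ETS letters occurred in 8 of the 32 members (25.0%) and in 5.69% of 17491 protein-coding genes. The E-box CACGTG was also found in 8 members (25.0%, against 8.91% of genes), the GC box in 23 (71.9% against 49.2%) and the NF-Y box in 17 (53.1% against 42.3%). E2F letters, searched as TTTCGCGC and TTTGGCGC, were held by Rfc3 and Lig1 (6.25% against 1.21%). The NRF1 site was held by Ercc6 alone (3.12% against 1.47%), and the p53 half-site by Cetn2 alone (3.12% against 8.54%). AP-1 letters stood in Gtf2h4 and Pold3 (6.25% against 5.40%), and the CRE TGACGTCA in no member against 2.54% of genes. Both strands were searched and no motif listed here contains another. The windows of members had a median GC content of 59.4% and those of all genes 56.3%, with a median of 22.5 and 13.0 CpG dinucleotides per window. These matches are descriptions of letters and are not binding sites.

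Promoters of the repair genes were open in nearly every group. A region lay within 1 kb of the start in all 10 lists for 30 of the 32 members with a start (93.8%, Wilson 95% interval 79.9 to 98.3), while 45.0% of 17491 genes met that rule. For Xpc, Ercc3, Ddb2, Rfc2, Pole and Ccnh the window was drawn around either end of the gene, and all 6 held a region there in all 10 lists, against 39.2% of 4392 genes. Some 37.0% of the 17491 genes had no region at the start in any list, and no member was in that state. Both exceptions, Gtf2h2 and Mnat1, belong to TFIIH. Intervals here cover counting error over regions or genes only. No list gives values per library, so there is no spread between replicates and no test between groups, and the labels do not say whether the libraries of a group came from separate animals.

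The authors' signal value in column 7 of each list is used only to rank regions within that list. A percentile of 90 means that a region's value exceeded that of 90% of the regions in its list. The median percentile of the promoter regions over the lists was 88.5 for the typical member and ran from 35.1 to 99.1. In the 10 lists, the summit of these regions lay at a median of 58.0 bases upstream of the start for the typical member of the 32, from 362 bases upstream in Gtf2h1 to 313 bases downstream in Xrcc1. In 26 of the 32 members it lay within 150 bases.

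**Figure D1:**
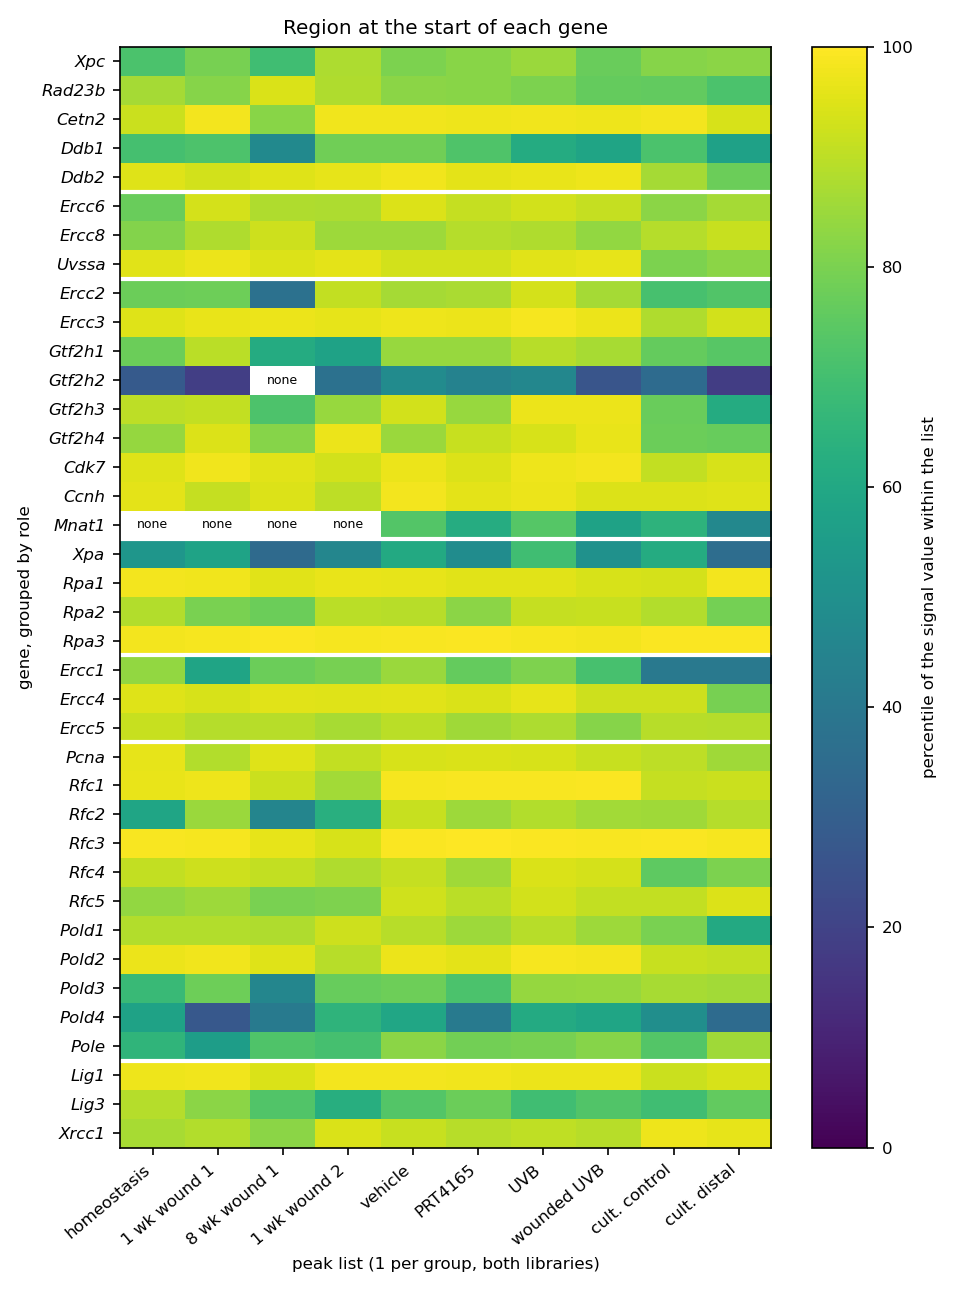
Percentile of the promoter region of each of the 38 members within each of the 10 lists, by role. Lists are columns and genes are rows, white cells marked none hold no region, and white lines part the roles; Gtf2h2 lacks a region in 1 list and Mnat1 in 4, and the other 36 rows are complete.

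Global damage recognition is carried out by Xpc with its partners Rad23b and Cetn2, and by Ddb2, which binds photolesions as part of a ligase with Ddb1. The promoter regions of all 5 were present in all 10 lists, at median percentiles from 71.2 in Ddb1 to 97.6 in Cetn2. Cetn2, a centrin that stabilises Xpc, had signal values of 15.5 in homeostasis, 20.3, 13.5 and 20.2 at 1 week, 8 weeks and 1 week after a second wound, 22.3 with vehicle, 22.5 with PRT4165, 23.8 with UVB, 25.3 with wounding and UVB, and 22.4 and 18.7 in the control and distal cultures. Its lowest percentile, 82.2, was in the list from 8 weeks after a first wound. Ddb2 lay at a percentile of 95.2 in homeostasis, 97.8 with vehicle, 96.7 with UVB and 97.4 with wounding and UVB, and at 86.7 and 77.4 in the control and distal cultures. Xpc, whose protein first contacts the distorted helix, lay between 69.3 and 87.7 in all lists. The summit of that region lay 19 bases from the start of the neighbouring gene Lsm3.

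The transcription-coupled branch held 3 members. Ercc6 is a chromatin remodeller that binds stalled polymerase, Ercc8 is the substrate receptor of its ubiquitin ligase, and Uvssa brings TFIIH to the stalled complex. Their promoters were present in all 10 lists at median percentiles of 89.7, 88.0 and 95.1. Uvssa had a signal value of 17.2 in homeostasis, 18.6 with vehicle, 21.4 with UVB and 24.0 with wounding and UVB, and values of 14.1 and 14.8 in the control and distal cultures.

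TFIIH holds the helicases Ercc2 and Ercc3, the core subunits Gtf2h1, Gtf2h2, Gtf2h3 and Gtf2h4, and the kinase module of Cdk7, Ccnh and Mnat1, and it also serves initiation by RNA polymerase II. Of these 9 genes, 7 had a promoter region in all 10 lists. Gtf2h2 had the lowest median percentile of all members, 35.1. Its signal values were 7.24 in homeostasis, 6.21 and 8.25 in the lists of 1 week after the first and the second wound, 8.82 with vehicle, 8.84 with PRT4165, 9.32 with UVB, 7.98 with wounding and UVB, and 7.52 and 6.45 in the control and distal cultures, with no region at 8 weeks. All of these values lay below the middle of their lists, at percentiles from 18.2 to 48.2.

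Mnat1, which assembles the kinase module, had no promoter region in homeostasis or in any of the 3 wound lists. The other 6 lists held one, with signal values of 12.6 for vehicle, 11.1 for PRT4165, 13.7 for UVB, 12.1 for wounding and UVB, and 11.1 and 9.15 for the control and distal cultures. Vehicle and UVB thus shared this region, at percentiles of 73.2 and 73.8. The 4 lists without it held 34644 to 49078 regions in all and the others 45714 to 73340. These ranges overlap, since the list of 1 week lacked the region with 49078 regions and the distal culture held it with 45714. The part of list length was not tested. Exactly this pattern of 6 lists was seen for 1 of the 150 member regions (0.667%) and 1.36% of all merged regions. The start used for Mnat1 lies inside its annotated span, and the result rests on that choice. Another region, 10.2 kb upstream of that start, lay in both the Mnat1 span and Six4. Only vehicle and the control and distal cultures held it, with signal values of 4.92, 12.6 and 11.3. Its summit was 64 bases from the start of Six4.

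Xpa, which verifies the lesion, had the lowest promoter in its role, with a median percentile of 51.6. The 3 subunits of the single-strand binding protein RPA lay higher, at 96.1 for Rpa1, 88.3 for Rpa2 and 99.0 for Rpa3. Rpa3 was at a percentile of 98.2 or higher in every list, with signal values from 19.3 in homeostasis to 26.8 with PRT4165. Xpa had signal values of 9.28 in homeostasis, 10.5 with vehicle, 12.8 with UVB and 11.0 with wounding and UVB, and 8.06 in the distal culture.

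The nuclease Ercc4 cuts 5′ of the lesion with its partner Ercc1, and Ercc5 cuts 3′. Ercc4 and Ercc5 had median percentiles of 94.6 and 88.8, with Ercc1 at 76.9. Ercc1 had signal values of 13.4 in homeostasis and 9.84, 12.6 and 13.3 in the lists of 1 week, 8 weeks and the second wound, 15.4 with vehicle, 13.6 with PRT4165, 15.3 with UVB, 14.5 with wounding and UVB, and 8.05 and 8.53 in the control and distal cultures. Both cultures therefore placed it at a percentile of 40.5, below all 8 lists from cells that were not cultured, where it lay between 58.3 and 84.9.

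Gap filling is shared with replication. Pcna is the sliding clamp, Rfc1 to Rfc5 are subunits of the loader that opens it, Pold1 to Pold4 form polymerase delta, and Pole is the catalytic subunit of polymerase epsilon. All 11 promoters were present in all 10 lists. Rfc3 had the highest median percentile of the 38 members, 99.1, with signal values from 17.5 after the second wound to 28.5 with wounding and UVB. Pold4, the small subunit of polymerase delta, had the lowest of the 11, 53.5. The nick is closed by Lig1, or by Lig3 with its scaffold Xrcc1, and these lay at 97.3, 73.2 and 90.0.

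Signal values of different lists are on different scales, so UVB was set against vehicle by rank among the 19075 regions that all 10 lists held. Here 100 is the strongest of those regions. Of the 36 members with such a promoter region, 20 ranked higher in the mean of the UVB lists than with vehicle and 16 lower, with a median difference of 0.615 points. For 7068 start regions of protein-coding genes the median was -0.425 points, 47.0% were higher, and the 10th and 90th percentiles were -10.3 and 11.4. The promoters of the repair genes as a group thus stood close to those of other genes.

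**Figure D2:**
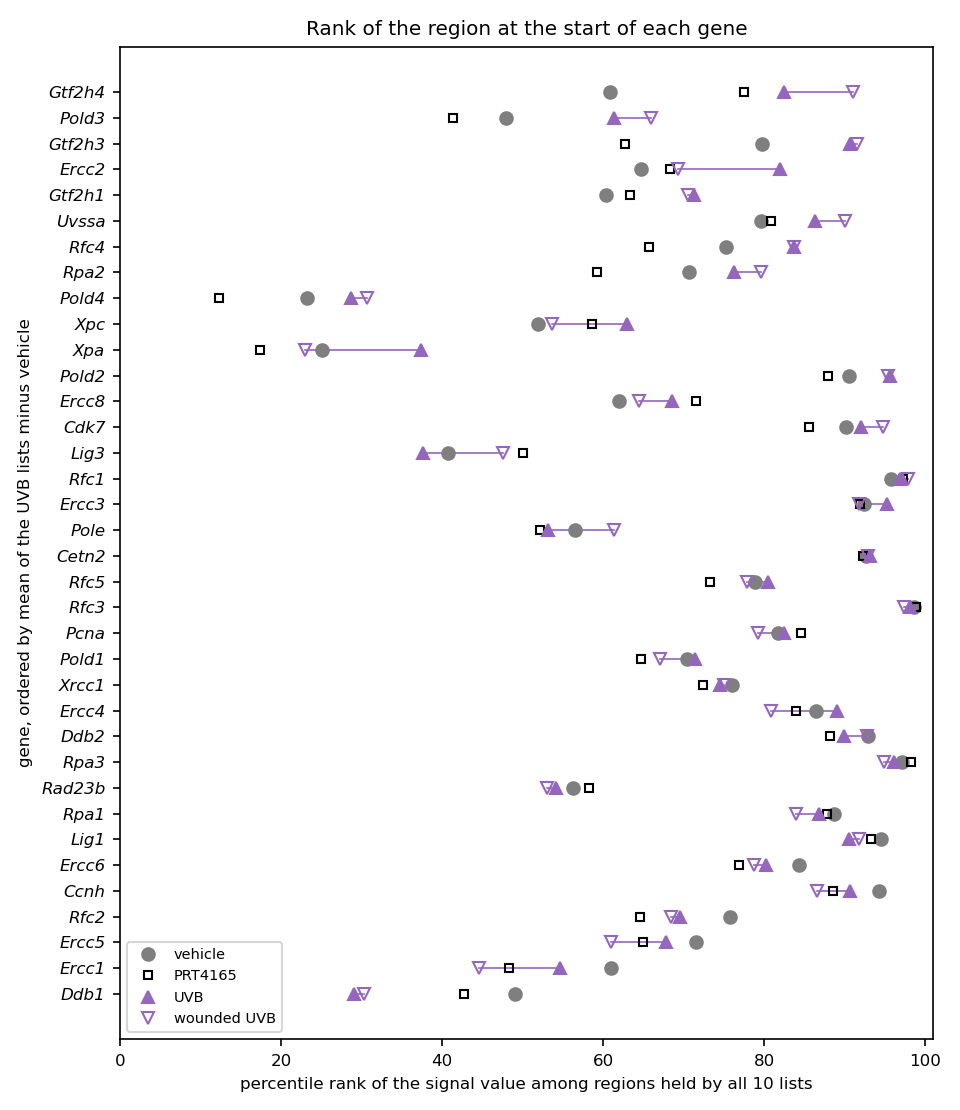
Rank of each member's promoter region among the 19075 regions shared by all lists, as a percentile, in the vehicle, PRT4165, UVB and wounded UVB lists, with a line joining the UVB lists and genes ordered by the mean of those lists minus vehicle. Gtf2h4 stands at the top with a difference of 25.9 points and Ddb1 at the bottom with -19.4, and the other 34 lie between -11.4 and 15.7.

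Members at the ends of this difference were selected by it and are described without a test. Gtf2h4, the TFIIH subunit that anchors the helicase Ercc3, ranked at 60.8 with vehicle, 77.5 with PRT4165, 82.4 with UVB and 91.0 with wounding and UVB, a difference of 25.9 points for the mean of the UVB lists. It also ranked at 74.0 in homeostasis and at 87.9, 71.6 and 93.7 in the lists of 1 week, 8 weeks and the second wound, so the UVB ranks lay inside the range of the lists without UVB. A second region 7.01 kb upstream of Gtf2h4, beside Ddr1, ranked at 38.6 with vehicle, 70.3 with UVB and 77.9 with wounding and UVB, but at 74.2 after the second wound. Pold3 ranked at 47.9 with vehicle and at 61.3 and 65.9 in the UVB lists, with 75.9 and 77.8 in the cultures. Gtf2h3 moved from 79.7 with vehicle to 90.6 and 91.5, and Ercc2 from 64.7 to 81.9 and 69.3.

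Ddb1 stood at the other end. It ranked at 49.1 with vehicle, 29.0 with UVB and 30.3 with wounding and UVB, a difference of -19.4 points. Homeostasis gave 54.8, 1 week 49.4, 8 weeks 31.9, the second wound 62.6, PRT4165 42.7, and the cultures 50.1 and 37.9, and both UVB ranks were lower than all of these. Ercc1 ranked at 61.0 with vehicle, 54.6 with UVB and 44.6 with wounding and UVB. Ercc5 and Rfc2 differed by -7.14 and -6.79 points.

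Over all 59 member regions held by every list, both UVB lists ranked above all of the other 8 for 4 (6.78%, 2.67 to 16.2, against 5.12% of shared regions) and below all of them for 5 (8.47%, 3.67 to 18.4, against 7.85%). The 4 were the promoters of Gtf2h3 and Pold2, a region beside Pole that lies in P2rx2, and a weak region near Ercc1 that lies in Ppp1r13l. The 5 were the promoters of Ddb1, Rad23b, Rpa1 and Rpa3, and the start of Eif4a2 in the window of Rfc4. Differences within these sets could be small: Rpa3 ranked at 96.1 and 94.9 in the UVB lists and at no less than 96.8 elsewhere.

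The AP-1 letters stood in the promoters of Gtf2h4 and Pold3, the members with the highest differences for the mean of the UVB lists. This coincidence was seen after the values were known. In the list of UVB without wounding, Ercc2 moved further from vehicle (64.7 to 81.9) than Pold3 (47.9 to 61.3), and Ercc2 held no AP-1 letters. Among all genes with a shared start region, the 322 with AP-1 letters had a median difference of -1.04 points and the 7521 without them -0.398, with 42.2% and 47.3% ranked higher in the UVB lists.

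Presence of regions was compared next. A region of one list that no region of the other list overlapped by at least 1 bp was counted as gained or lost. Of the 113 member regions in the UVB list, 10 had no overlap in the vehicle list (8.85%, 4.88 to 15.5, against 16.2% of all regions in the UVB list). Of the 113 in the vehicle list, 10 had no overlap in the UVB list (8.85%, 4.88 to 15.5, against 11.6%). None of the 20 was the region counted at a member's own start. Over 1 kb from any annotated start lay 9 of the 10 gained and 9 of the 10 lost. The same held for 11013 of the 11862 regions gained and 7667 of the 8108 lost over the whole lists. With regions over 1 kb from any annotated start, a split added after the values were seen, the shares were 16.4% of 55 gained (8.86 to 28.3, against 18.5%) and 16.1% of 56 lost (8.69 to 27.8, against 13.5%), and both intervals contained the share over all regions.

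**Figure D3:**
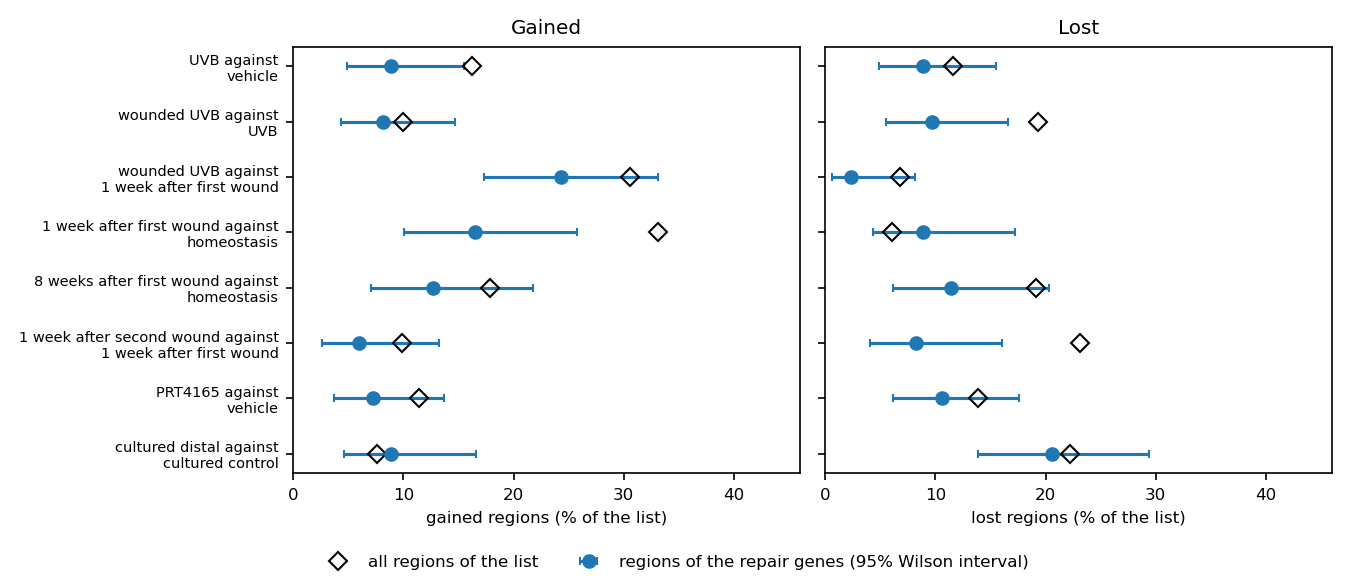
Percent of regions gained and lost in each of 8 comparisons of lists. Points are member regions with Wilson 95% intervals and diamonds all regions; for UVB against vehicle the members stand at 8.85% in both directions and all regions at 16.2% gained and 11.6% lost.

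The 10 regions gained in the UVB list were spread over 10 genes, with 1 each at Ddb1, Ercc8, Uvssa, Ercc2, Gtf2h1, Rpa1, Ercc1, Rfc1, Pold2 and Pold4. They were mostly weak, with signal values of 3.17 at Ddb1, 4.33 at Ercc2, 4.50 at Pold4, 4.89 at Uvssa, 5.26 at Pold2, 5.48 at Gtf2h1, 8.01 at Ercc1 and 9.03 at Ercc8. The strongest were in Rfc1, 11.1, and in Rpa1, 12, at percentiles of 58.9 and 64.8. The Rpa1 region, at chr11:75320965-75321778 and 27.2 kb inside the gene from its start, was held by the UVB list alone. By role, 1 of 15 regions was gained for global recognition, 2 of 10 for transcription-coupled recognition, 2 of 24 for TFIIH, 1 of 10 for verification, 1 of 18 for nucleases, 3 of 26 for gap synthesis and 0 of 10 for ligation.

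Among the 10 regions lost, 3 were at Mnat1 and 1 each at Ercc6, Gtf2h4, Ccnh, Rpa1, Ercc1, Rfc1 and Xrcc1. The strongest lay at chr12:73269973-73270422, in a stretch shared by Mnat1 and Trmt5. It had signal values of 7.95 at 8 weeks, 9.49 after the second wound, 16.4 with vehicle and 16.1 with PRT4165, and no region in the other 6 lists. The others had vehicle values from 3.29 at Ercc1 to 10.5 at Xrcc1.

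A region in both UVB lists and in none of the other 8 was found at 2 of the 150 member regions (1.33%, 0.366 to 4.73, against 1.52% of all merged regions). The first lay at chr5:65278856-65279716, inside Rfc1 and 56.5 kb from its start, with a signal value of 11.1 with UVB and 22.6 with wounding and UVB. The latter placed it at a percentile of 94.6. The second lay at chr7:46827012-46827369, 3386 bases past the end of Gtf2h1, with values of 5.48 and 11.4.

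A second region of Gtf2h1, at chr7:46814125-46815146 and 18.8 kb inside the gene, was not confined to the UVB lists. It had signal values of 7.95 at 8 weeks, 7.48 with vehicle, 5.49 with PRT4165, 14.3 with UVB, 16.2 with wounding and UVB, and 7.39 and 7.0 in the cultures, and none in homeostasis, at 1 week or after the second wound. Its percentile was 76.6 and 78.0 in the UVB lists and at most 35.4 in the others. It was singled out after its values were seen.

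**Figure D4:**
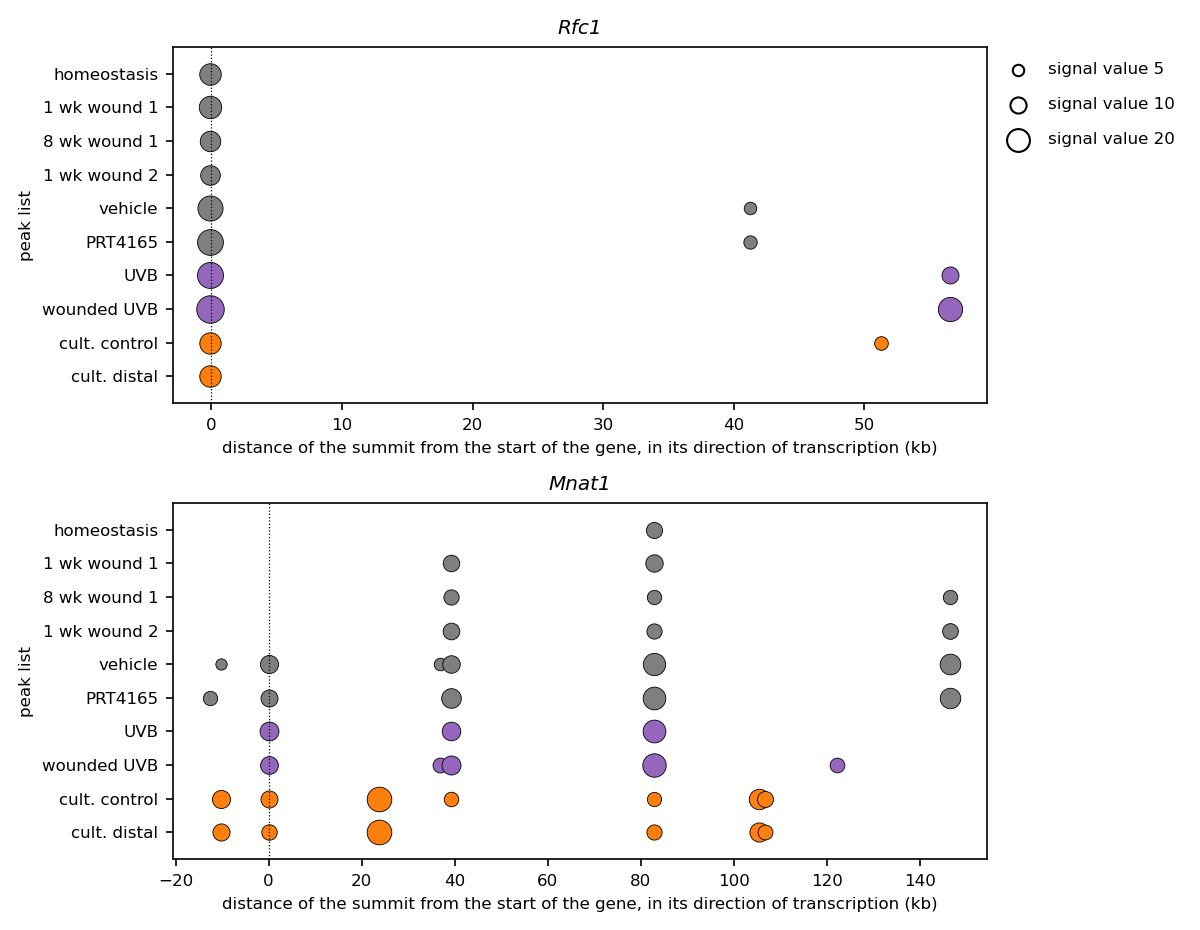
Regions at Rfc1 and Mnat1 in the 10 lists (rows), by distance of the summit from the gene's start in kb. Point area is proportional to the authors' signal value, purple marks the UVB lists, orange the cultured lists and gray the others; the Rfc1 region 56.5 kb into the gene appears in purple only and 3 Mnat1 regions in orange only.

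When wounding was added to UVB, 9 of 111 member regions had no overlap in the UVB list (8.11%, 4.32 to 14.7, against 10% of all regions) and 11 of 113 regions of the UVB list had none in the list of wounding with UVB (9.73%, 5.52 to 16.6, against 19.3%). Over 1 kb from any start the shares were 14.8% gained (7.70 to 26.6, against 11.9%) and 16.4% lost (8.86 to 28.3, against 22.1%). The regions gained were at Xpc, Ercc8, Ercc2, Mnat1 with 2, Ercc4, Pold1, Pold3 and Xrcc1. The strongest had a signal value of 16.5 at Xrcc1, at a percentile of 79.3. Pold3 gained a region at chr7:100115014-100115440, inside the gene, with a value of 12.2, held by no other list. The regions lost were at Ddb1 with 2, Ercc6 with 2, Uvssa, Ercc2, Rpa1, Ercc1, Ercc4, Pcna and Lig1. The strongest of these were at Ercc6, 15.1, and in the window of Pcna, 13.9, where it lies in Tmem230.

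Regions at the starts of the Y-linked genes Ddx3y, Uty and Eif2s3y were present in 5 lists, those of 1 week, the second wound, wounding with UVB and both cultures, and absent from the other 5, UVB included. Wounding with UVB and UVB alone therefore also differed in this, as did 1 week and homeostasis, and its part in the differences was not tested. Cetn2 is the only X-linked member.

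Against 1 week after a first wound, the list of wounding with UVB gained 27 of its 111 member regions (24.3%, 17.3 to 33.1, against 30.6%), and 2 of 85 were lost (2.35%, 0.648 to 8.18, against 6.75%), both at Ercc6. These groups differ in UVB, but the labels do not give the time after wounding for the irradiated group. The list of 1 week holds fewer regions.

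In the wound course, 1 week against homeostasis gave 14 gained regions of 85 (16.5%, 10.1 to 25.8, against 33.1%) and 7 lost of 79 (8.86%, 4.36 to 17.2, against 6.04%). The gained regions were at Xpc, Ddb1, Ercc6 with 2, Ercc8, Uvssa, Mnat1, Xpa, Rpa1, Ercc4, Ercc5, Rfc2, Pold1 and Lig1. A region 32.8 kb inside Ercc8, at chr13:108191221-108191675, was among those absent from homeostasis and both cultures. Its signal values were 13.0, 12.5 and 15.7 in the lists of 1 week, 8 weeks and the second wound, 17.7 with vehicle, 21.6 with PRT4165, 22.9 with UVB and 23.0 with wounding and UVB. Vehicle-treated skin held it without a wound.

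At 8 weeks against homeostasis, 10 of 79 regions were gained (12.7%, 7.02 to 21.8, against 17.9%) and 9 of 79 lost (11.4%, 6.11 to 20.3, against 19.1%), the Gtf2h2 promoter among the latter. The second wound against the first gave 5 of 84 gained (5.95%, 2.57 to 13.2, against 9.85%) and 7 of 85 lost (8.24%, 4.05 to 16.0, against 23.1%). Homeostasis is the shared control of the first pair of comparisons and the list of 1 week is shared by others, so these results are not independent of each other. The share of member regions was below the share of all regions, with the latter outside the interval, for regions gained at 1 week, regions lost after the second wound, regions gained with UVB and regions lost when wounding was added to UVB. Member windows are rich in start regions, which seldom differed between lists, and the part of this in the lower shares was examined only for the UVB comparisons, away from starts.

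PRT4165 against vehicle gave 8 of 110 gained regions (7.27%, 3.73 to 13.7, against 11.4%) and 12 of 113 lost (10.6%, 6.18 to 17.6, against 13.9%). The gained regions were at Ercc8, Uvssa, Mnat1, Ercc5, Pold2, Pold3 with 2 and Pold4. The lost ones were at Ercc6, Uvssa, Gtf2h2, Gtf2h4, Ccnh, Mnat1 with 2, Rpa1, Ercc1 with 2, Pold1 and Pold2. Vehicle is also the control for UVB.

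Between the cultures, distal against control gave 8 of 90 gained (8.89%, 4.57 to 16.6, against 7.60%) and 21 of 102 lost (20.6%, 13.9 to 29.4, against 22.2%), both close to the share over all regions. Regions in both cultures and in no list from uncultured cells were 9 of 150 (6.0%, 3.19 to 11.0, against 7.75%), with 3 in Mnat1, 2 upstream of Ercc1 and 1 each at Gtf2h2, Ddb2, Pole and Lig1. The strongest, at chr12:73147076-73147641 and 23.7 kb inside Mnat1, had signal values of 23.3 and 23.4 in the control and distal cultures, at percentiles of 98.6 and 98.9. Ddb2 had values of 14.5 and 13.2 in a region 5.65 kb beyond an end of the gene, and Pole 17.7 and 15.8 inside it.

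The reverse pattern, a region in all 8 uncultured lists and in neither culture, was found for 4 of 150 (2.67%, 1.04 to 6.66, against 5.06%), at Ercc4, Ercc3, Uvssa and Xpc. The Uvssa region, 7.69 kb inside the gene, had values of 12.5 in homeostasis, 12.1, 9.16 and 11.5 in the wound lists, 14.3 with vehicle, 13.4 with PRT4165, 15.9 with UVB and 18.6 with wounding and UVB.

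Presence across lists differed between promoters and the rest of the windows. The region counted at a member's start was the strongest within 1 kb in each list. Weaker regions there fell among the rest, such as a region 422 bases upstream of Ercc4 that was in 4 lists. Part of the contrast was therefore set by this choice. Of the 38 regions at a member's start, 36 were in all 10 lists and none in 1 list alone. Of 17 regions at the start of another gene, 9 were in all 10. Of the 95 regions elsewhere, 14 were in all 10 and 22 in 1 list alone. In total 59 of 150 member regions were in all 10 lists (39.3%, 31.9 to 47.3, against 18.8%) and 23 were in 1 alone (15.3%, 10.4 to 22.0, against 17.1%). Windows differed in size and neighbours: Ercc1 held 13 regions, Mnat1 11 and Ercc4 9, while Cetn2, Cdk7, Rpa2, Rpa3, Rfc3, Rfc5 and Lig3 held 1 each.

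By the starts in the table, a neighbouring gene on the opposite strand starts within 1 kb of 8 of the 32 members (25.0%, 13.3 to 42.1), against 8.48% of 17491 genes. The partners are Nsdhl for Cetn2, 177 bases away, Ndufaf2 for Ercc8 (113), Hps5 for Gtf2h1 (213), Eif2b1 for Gtf2h3 (17), Smyd4 for Rpa1 (50), Umad1 for Rpa3 (147), Zswim9 for Lig1 (105) and Pinlyp for Xrcc1 (694). A promoter region at these members cannot be assigned to a single gene of the pair. Neighbours whose span ends nearby without a listed start there were not counted, so more members may share a promoter region. The Pcna promoter region had its summit 69 bases from an end of the Cds2 span, and it cannot be assigned to Pcna alone. Members with no start in the table were not counted here. Among them, the Xpc region had its summit outside the Xpc span and 19 bases from the start of Lsm3. It cannot be assigned to Xpc rather than Lsm3 either.

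Promoters of other repair genes were counted by the same rule. A region in all 10 lists lay at the start of 11 of 12 further genes of the pathway, 14 of 14 of base excision repair and 4 of 5 of mismatch repair. Around either end, for genes with no start in the table, the counts were 1 of 1, 2 of 4 and 3 of 3. Over all protein-coding genes the shares were 45.0% at a start and 39.2% around either end. In UVB against vehicle, the further pathway genes gained 3 of 40 regions (7.50%) and lost 1 of 38 (2.63%). Base excision repair genes gained 3 of 61 (4.92%) and lost 4 of 63 (6.35%), and mismatch repair genes gained 5 of 27 (18.5%) and lost 0 of 23. Over all regions 16.2% were gained and 11.6% lost. Differences between these lists and the members were not tested.

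The lists held 34644 to 73340 regions each. Cell type markers were checked by a region within 1 kb of the start. Starts not listed in the table were not checked, so absence here does not show that a gene was closed. Lrig1 held one in all 10 lists and Ly6a, which encodes Sca1, in 8. Of 5 keratinocyte markers, 2 to 4 had one, with Krt6a and Itga6 in every list and Trp63 in none. The 4 T cell markers found were at 0 in every list, immune markers at 0 to 1 of 3 with Ptprc and Cd207 in none, and endothelial markers at 0 to 1 of 4. Melanocyte markers stood at 2 to 4 of 5, with 2 for vehicle, 4 for UVB and 3 for wounding with UVB. Of these, Pmel and Mitf were in every list and Tyrp1 in none. Fibroblast markers stood at 1 to 3 of 5, with 3 for vehicle, 2 for UVB and 2 for wounding with UVB. Col1a1 was in every list, and Col1a2 and Dpt in none. The part of other cells in these results was not tested, and in bulk libraries fewer cells of a type and less accessibility per cell cannot be told apart.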

How the data were processed

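ATAC-seq was made from 20 libraries in 10 groups of 2. The authors deposited 1 peak list per group, named as a conservative reproducible set. Positions are on mm10, a build named in the submitters' processing notes. The aligner, peak caller, read depth and any Tn5 shift were not given in the sources used here. Each deposited list gives a signal value (column 7), a −log10 p or q value and a score per peak; only positions, summits and the signal value were used. Signal values ranked regions within a list.

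Peaks were merged on chromosomes 1 to 19, X and Y, using Python 3.11.15, numpy 2.4.6, pandas 2.3.3, scipy 1.17.1 and matplotlib 3.10.9. Of 16 overlap counts, 16 were equal to those of bedtools 2.31.1. The code was tested on simulated data, and 200 of 200 gained and 200 of 200 lost regions were found. Gene positions came from RefSeq for GRCm38.p6, in which all 38 symbols matched. Intervals are Wilson 95%.

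The members and lists were chosen with earlier results of these data known. Genes picked for description were those lacking a promoter region in a list, the 12 with most regions gained or lost in the UVB comparisons, those with a region in both UVB lists alone, and the 4 highest and 4 lowest by promoter percentile and by UVB difference in rank. For some of them, such as Lig1, Pold4 and Rfc2, only part of the values is given. Alternatives were other windows, overlaps, thresholds, list lengths and controls.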

Additional observations from a re-analysis of the deposited data

How the results depend on the processing

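Of 102 alternative shares for 16 results, 77 stayed within the 95% interval of the main value and 25 moved. Of 6 alternative counts for 2 results, 4 stayed within 1.5 times the main count and 2 moved. Among the strongest 50% of each list, member shares, each with the share of all such regions in parentheses, were 2.70% gained (4.24%) and 2.90% lost (2.25%) for UVB against vehicle, and 2.82% (3.03%) and 4.05% (5.91%) for wounding with UVB against UVB. Wounding with UVB against 1 week gave 9.86% (14.5%) and 0% (1.77%), 1 week against homeostasis 6.56% (15.3%) and 0% (0.960%), and 8 weeks against homeostasis 2.13% (6.25%) and 0% (5.15%). PRT4165 against vehicle gave 1.43% (1.91%) and 0% (1.63%), distal against control culture 0% (0.582%) and 1.59% (3.59%), and the second against the first wound 3.28% lost (7.76%). With lists cut to equal length, the shares that moved were 16.2% gained for wounding with UVB against UVB (all regions 15.7%), 20% lost against 1 week (22.7%), 24.1% lost at 1 week against homeostasis (22.8%), 14.3% gained for the second wound (18%) and 17.8% gained for the distal culture (15.5%). With homeostasis in place of vehicle, 34 of 113 (30.1%) were gained under UVB, against 53% of all regions, and 0 of 79 (0%) lost, against 1.09%. Over 1 kb from any start, added after the data were seen, UVB against vehicle gave 16.4% gained (18.5%) and 16.1% lost (13.5%), and wounding with UVB against UVB 14.8% gained (11.9%). The count of 2 regions in both UVB lists alone became 1 within gene spans only and 1 at the shortest list length. The cause of these shifts was not tested, apart from the fewer regions that the strongest 50% and equal lengths leave by construction. With all lists at the shortest length, 28 of 32 members (87.5%) had a promoter region in all 10, against 35.7% of genes, and with the strongest 50% 24 of 32 (75.0%), against 28.7%. No paired analysis was possible because each group has 1 list made from both libraries, which also kept replicates from being left out. Read depth is not given, so the depth limit on absent regions is unknown.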
